A study of Homo sapiens with 8 samples.

Results

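PLXNA2, NRP2 and TENM4 encode cell-surface receptors best known for guiding growing axons and migrating cells. Of the 1249 start sites listed for proliferating and senescent IMR90 fibroblasts, 18 (1.44%) lay in these genes. IMR90 is a human lung fibroblast line with a limited life span in culture. The sites were chosen by position: a site belonged to a gene when its central base lay within the gene's annotated span or up to 1 kb upstream. Since a place on either list depends on the measured fold between the states, the counts and folds of these sites are given as a description, with no test. The list of sites of proliferating cells held 17 of the 18 (4.25% of its 400 sites) and the list of sites of senescent cells held 1 (0.118% of its 849). They are called proliferating-only and senescent-only here, after the names of the lists.

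The libraries were run-on libraries, in which engaged RNA polymerases extend their transcripts in permeabilized cells over biotin-labelled bases. In PRO-cap, RNAs with a 5′ cap are selected, so that a read marks where transcription began, while PRO-seq maps the polymerases. Proliferating cells gave 3 PRO-cap libraries, 1 at population doubling 23 and 2 at 26, and cells in replicative senescence gave 3, 1 at population doubling 76 and 2 at 67. PRO-seq had 1 library of each state, at population doubling 20 and 76, not analysed here. All cells were of the 1 line, with no drug or transgene named in the labels: senescence was reached by serial passage at low oxygen. The lists hold 1 fold per site and nothing per library, so spread between cultures cannot be given, and in such bulk samples fewer cells using a start and less RNA per cell cannot be told apart. A start inside a gene is no measure of its expression. Of 10 fibroblast markers, PDGFRA held a listed site (senescent-only), and 0 of the 14 markers found for endothelial, epithelial, neural and blood cells did. Over all protein-coding genes 2.04% held a senescent-only and 1.09% a proliferating-only site, so these marker counts say nothing about the cell type.

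Plexins are the receptors of semaphorins, and signal through a cytoplasmic domain that acts on small GTPases and so on the cytoskeleton and adhesion. PLXNA2 encodes plexin A2, which binds class 6 semaphorins directly and class 3 semaphorins together with a neuropilin. NRP2 encodes neuropilin 2, a co-receptor with a short cytoplasmic tail, which binds SEMA3F and also VEGF-C. TENM4 encodes a teneurin, a large transmembrane protein that binds latrophilins on neighbouring cells and is known for its part in myelination. All of these genes are also expressed outside the nervous system.

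The sequences below carry the findings that follow. Sites are numbered by rising hg19 coordinate, so that in PLXNA2 and TENM4, which lie on the minus strand, site 1 is nearest to the 3′ end of the gene. Shown for PLXNA2 are a site with an AP-1 motif beside its centre, the site with the highest fold in the gene and the site that spans an annotated transcript start. For NRP2 they are the senescent-only site and a pair of proliferating-only sites, and for TENM4 the site with the highest fold in the 3 genes and another pair. Each is the whole listed site of 150 bases, from the GRCh37 assembly. Capitals mark the pyrimidine-purine step at the centre, where there is one and any whole match to the AP-1, TATA box, TEAD, C/EBP or RUNX motifs given further on. The step reads 5′ to 3′ as printed at PLXNA2 sites 2 and 4, NRP2 site 5 and TENM4 site 7. At PLXNA2 site 1, NRP2 site 4 and TENM4 sites 3 and 6 it lies on the minus strand, so that a printed TG is a CA there and a printed CA is a TG.
PLXNA2 site 1, chr1:208202954-208203103, + strand: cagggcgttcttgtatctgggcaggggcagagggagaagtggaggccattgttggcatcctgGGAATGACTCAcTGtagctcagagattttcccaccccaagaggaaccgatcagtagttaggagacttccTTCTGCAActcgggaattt
PLXNA2 site 2, chr1:208203172-208203321, + strand: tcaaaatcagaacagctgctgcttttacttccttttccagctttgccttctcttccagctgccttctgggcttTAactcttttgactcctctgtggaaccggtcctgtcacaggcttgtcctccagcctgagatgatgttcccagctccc
PLXNA2 site 4, chr1:208203508-208203657, + strand: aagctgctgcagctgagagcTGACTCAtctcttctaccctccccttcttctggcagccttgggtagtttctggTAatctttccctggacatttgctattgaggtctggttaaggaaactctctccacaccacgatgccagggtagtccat
NRP2 site 3, chr2:206619612-206619761, + strand: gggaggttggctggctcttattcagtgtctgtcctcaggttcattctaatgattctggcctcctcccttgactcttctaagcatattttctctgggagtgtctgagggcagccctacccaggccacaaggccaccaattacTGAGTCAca
NRP2 site 4, chr2:206657597-206657746, + strand: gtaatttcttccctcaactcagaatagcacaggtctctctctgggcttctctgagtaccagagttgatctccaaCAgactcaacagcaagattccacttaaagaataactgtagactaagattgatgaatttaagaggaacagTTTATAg
NRP2 site 5, chr2:206657857-206658006, + strand: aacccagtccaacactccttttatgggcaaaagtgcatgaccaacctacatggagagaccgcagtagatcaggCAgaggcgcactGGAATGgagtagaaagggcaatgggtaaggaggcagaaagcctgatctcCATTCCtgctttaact
TENM4 site 3, chr11:78522765-78522914, + strand: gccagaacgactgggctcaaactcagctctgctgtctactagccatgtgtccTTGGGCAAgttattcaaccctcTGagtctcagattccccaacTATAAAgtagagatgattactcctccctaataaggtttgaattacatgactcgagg
TENM4 site 6, chr11:78729597-78729746, + strand: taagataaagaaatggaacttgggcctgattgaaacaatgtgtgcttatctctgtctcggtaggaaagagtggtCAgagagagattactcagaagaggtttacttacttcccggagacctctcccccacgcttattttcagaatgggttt
TENM4 site 7, chr11:78729859-78730008, + strand: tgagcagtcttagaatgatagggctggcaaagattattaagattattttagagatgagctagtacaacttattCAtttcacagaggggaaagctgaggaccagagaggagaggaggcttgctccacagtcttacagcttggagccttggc

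The first question was how many sites each gene held and of which state. TENM4 held 7 proliferating-only and 0 senescent-only sites, PLXNA2 held 6 and 0, and NRP2 held 4 and 1. Of 20163 protein-coding genes, 1.09% held a proliferating-only site, 2.04% a senescent-only site and 0.0794% sites of both lists. At least 4 proliferating-only sites lay in 0.0843% of the genes (17 genes), at least 6 in 0.0149% (3 genes) and at least 7 in 0.00496% (1 gene, TENM4). The lists chose these genes, so nothing is read from these shares. PLXNA2 (ENSG00000076356, minus strand) spans chr1:208195587-208417729, NRP2 (ENSG00000118257, plus strand) chr2:206546714-206662857 and TENM4 (ENSG00000149256, minus strand) chr11:78363874-79152074 in hg19. All 3 genes are long, with 788 kb (TENM4), 222 kb (PLXNA2) and 116 kb (NRP2), against a median of 27.2 kb over protein-coding genes. Per 100 kb of gene there were 0.888 proliferating-only sites in TENM4, 2.70 in PLXNA2 and 3.44 in NRP2, and 0.0274 over the spans of all protein-coding genes.

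No other listed site was near. The nearest outside PLXNA2 lay 685 kb away in CD55 (senescent-only, fold 52.0) and 4731 kb away in VASH2 (proliferating-only, fold 395). Around NRP2 the nearest were 3822 kb (CDK15, proliferating-only, fold 12.8) and 4893 kb away (senescent-only, fold 17.1). Around TENM4 they were 3539 kb (RAB30, senescent-only, fold 329) and 6295 kb away (SYTL2, proliferating-only, fold 513). The upstream limit of 1 kb thus decided no membership.

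**Figure D1:**
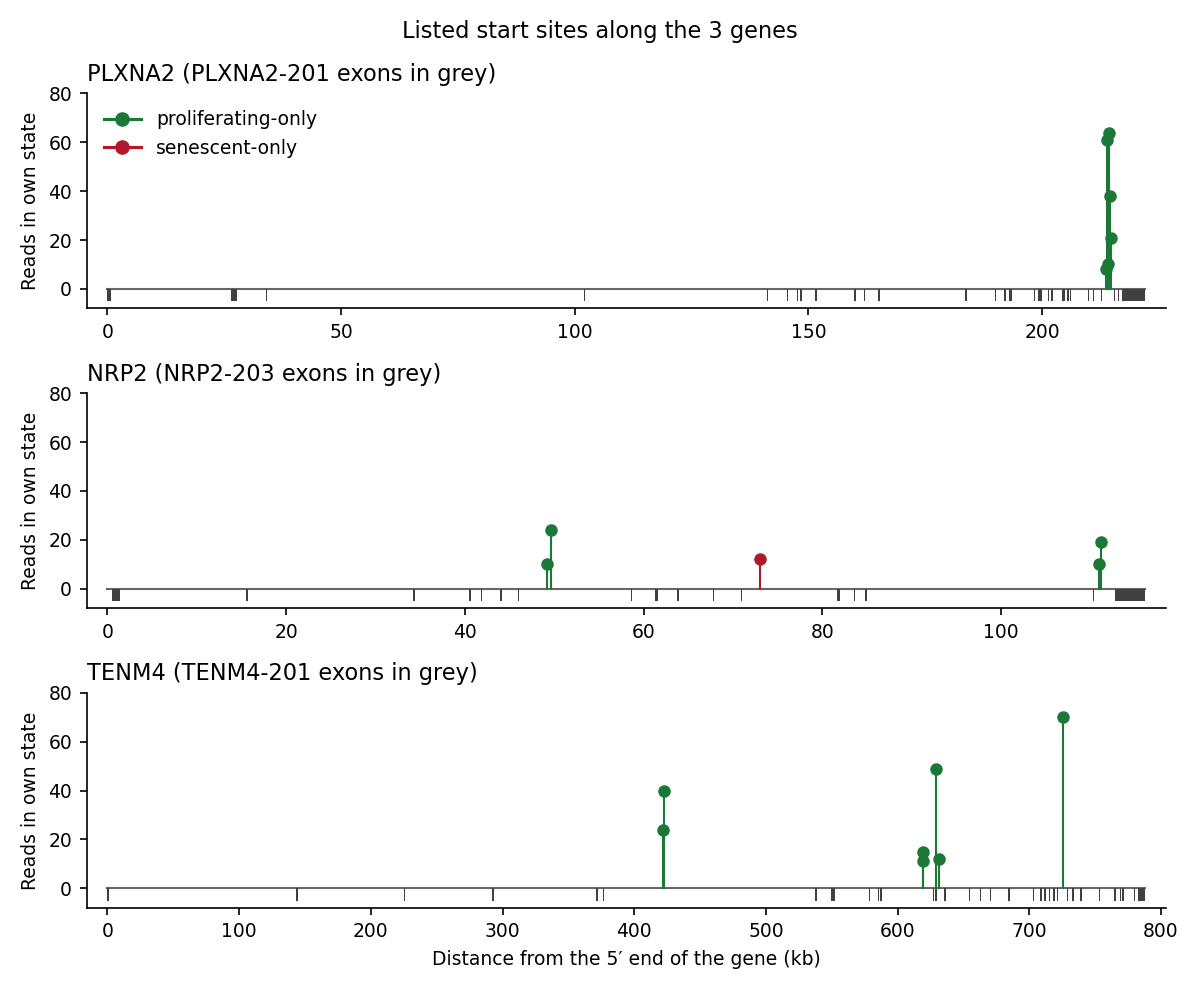
Listed sites along PLXNA2, NRP2 and TENM4: the horizontal axis is the distance from the 5′ end of the gene in kb, the height of a line the number of reads in the site's own state, and grey boxes below the line the exons of the canonical transcript. The 6 PLXNA2 sites stand together near the 3′ end, the 1 senescent-only site of NRP2 stands between 2 proliferating-only pairs, and the TENM4 sites spread from 422 to 725 kb.

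Reads behind each site were taken from the deposited fold, the authors' ratio of one state over the other. It was read here as a ratio after a pseudocount of 1 was added to each state. The labels do not state this form, which was inferred from the folds themselves. Every fold was matched by whole reads with 1 step per state, 39.4 for a read of proliferating cells and 32.8 for a read of senescent cells. Where the other state had 0 reads, the deposited fold rests on the pseudocount, and the counts give no ratio. For these sites the reads were set against a floor of 3 reads in the other state and scaled by the steps. This value takes the reads of the site's own state as exact. It is therefore no 95% lower limit and cannot be compared with the intervals of other sites. Intervals are exact at 95% and cover counting error only, since reads copied by PCR are not independent molecules. A place on a list depends on the same fold, and the ratios and intervals are not corrected for that choice. They describe the listed sites and give no separate support for a difference between the states.

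In PLXNA2 the 6 sites formed 1 cluster of 1257 bases, chr1:208202954-208204210, in intron 29 of the 32-exon transcript PLXNA2-201, 96.2% to 96.7% of the way along the gene. From site 1 to site 6 they had 21, 38, 64, 10, 61 and 8 reads in proliferating cells and 1, 0, 3, 0, 1 and 0 in senescent cells. The well-filled sites 3 and 5 had intervals of 49.3 to 81.7 and 46.7 to 78.4 reads, while sites 4 and 6 had 4.80 to 18.4 and 3.45 to 15.8, so these intervals did not overlap. The authors' folds were 24.5, 1497, 25.3, 395, 71.1 and 316. The order of the folds is not the order of the reads: site 3 had the most reads of the gene and, with 3 reads in senescent cells, a low fold. By the counts, site 3 was 25.6-fold higher in proliferating cells (8.37 to 127), site 1 was 25.2-fold higher (4.05 to 1042) and site 5 was 73.2-fold higher (12.7 to 2938). Against the floor of 3 reads, site 2 was 15.2-fold higher, site 4 was 4.0-fold and site 6 was 3.20-fold. Sites 3 and 4 overlap by 24 bases, so reads there may be counted in both.

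The PLXNA2 cluster surrounded an annotated internal start. The transcript PLXNA2-205, with 3 exons and no annotated coding sequence, begins at 208203648 on the minus strand. Site 4 spans that base, with its centre 66 bases away, but its central step lies on the plus strand, against PLXNA2-205. Sites 1, 2 and 3 lay wholly in the first exon of PLXNA2-205, 620, 402 and 192 bases from its start, and sites 5 and 6 lay 260 and 487 bases from it on the upstream side, outside annotated exons. All 6 therefore counted as promoter sites, within 1 kb of a transcript start, against 16.75% of all proliferating-only sites. In the NRP2 and TENM4 genes, by contrast, 0 of 12 sites did.

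In NRP2, 2 pairs of proliferating-only sites stood on either side of the senescent-only site. Sites 1 and 2, at chr2:206595831-206596474 in intron 7 of the 17-exon transcript NRP2-203, had 10 and 24 reads in proliferating and 0 and 1 in senescent cells (folds 395 and 28.0). Sites 4 and 5, at chr2:206657597-206658006 in intron 16, had 10 and 19 reads and 0 in senescent cells (folds 395 and 749). The senescent-only site 3, at chr2:206619612-206619761 in intron 12, had 12 reads in senescent cells (6.20 to 21.0) and 0 in proliferating cells (fold 395). The interval of its reads overlapped those of the other 4 NRP2 sites in proliferating cells, so it was no better filled than they were. The central base of site 3 lay 23287 bases from that of site 2 and 37985 bases from that of site 4. Against the floor of 3 reads, site 3 was 3.33-fold higher in senescent cells. Sites 1, 4 and 5 were 4.0-fold, 4.0-fold and 7.60-fold higher in proliferating cells by the same floor. Site 2 was 28.8-fold higher there (4.70 to 1184).

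The NRP2 sites were far from annotated starts. The nearest transcript start was 8755 and 8261 bases from sites 1 and 2, 2494 bases from site 3 and 28610 and 28870 bases from sites 4 and 5. Sites 1 and 2 lay 42.4% and 42.8% of the way along the gene, and were the members before the midpoint of their gene. The other 16 lay past it, but those in PLXNA2 made up 1 cluster. No share over all listed sites is given beside this count, so nothing is read from it. Sites 4 and 5, at 95.5% and 95.8%, lay 662 and 922 bases from the nearest exon.

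TENM4 held the most reads at 1 site. Site 1, at chr11:78426567-78426716 in intron 25 of the 34-exon transcript TENM4-201, had 70 reads in proliferating cells (54.6 to 88.4) and 1 in senescent cells. Its deposited fold was 81.5, and by the counts it was 84.0-fold higher (14.6 to 3364). The other 6 had 0 reads in senescent cells. Site 3, at chr11:78522765-78522914 in intron 14, had 49 reads and the highest fold of the 3 genes, 1930. Against the floor of 3 reads it was 19.6-fold higher. Site 2 lay in the same intron with 12 reads (fold 473). Sites 4 and 5, in intron 12, overlap by 47 bases and had 15 and 11 reads (folds 592 and 434). Sites 6 and 7, at chr11:78729597-78730008 in intron 6, which is 161 kb long, had 40 and 24 reads (folds 1576 and 946). Against the floor they were 16.0-fold and 9.60-fold higher.

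The 7 TENM4 sites fell into 3 regions when joined within 10 kb and into 5 when joined within 500 bases. They lay between 53.6% and 92.0% of the way along the gene and 2905 to 16158 bases from the nearest transcript start. None of the 7 touched an annotated exon of the gene: site 3 was the nearest, with its centre 328 bases from one. The PLXNA2 starts were thus packed into 1 place, while those of TENM4 were spread between 422 and 725 kb into the gene.

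**Figure D2:**
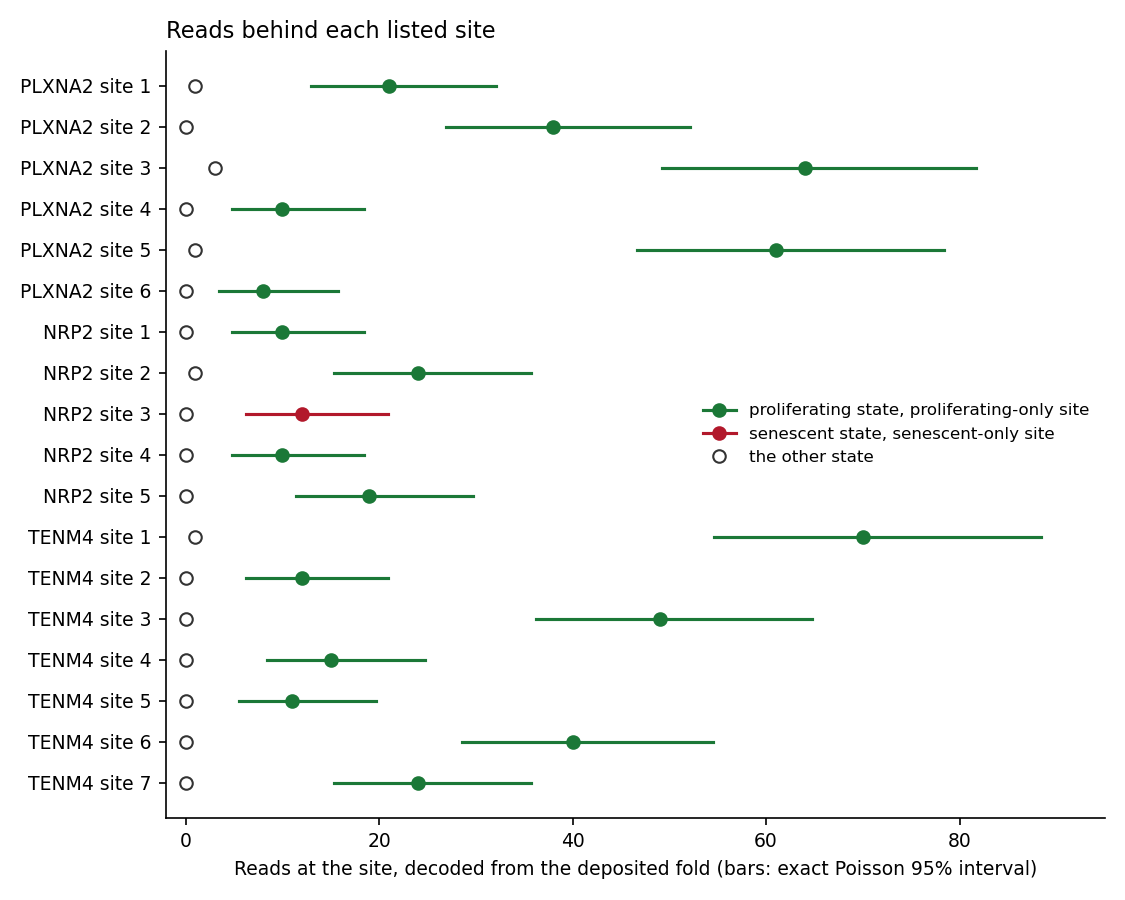
Reads decoded for each of the 18 sites: the horizontal axis is the number of reads, filled points the site's own state with the exact Poisson 95% interval, and open points the other state. All open points lie at 3 reads or fewer, and the filled points run from 8 (PLXNA2 site 6) to 70 (TENM4 site 1).

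Over the 17 proliferating-only sites the median was 21 reads in proliferating cells, close to the 24 over all 400 sites of that list, and the median fold was 395 against 473. No senescent read fell on 12 of the 17 (70.6%), against 73% of the whole list. The other 5 were PLXNA2 sites 1, 3 and 5, NRP2 site 2 and TENM4 site 1. The folds of the members ran from 24.5 to 1930, where the list runs from 10.04 to 11576, so no member stood at the lower limit.

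A pattern at the centre of the sites allowed most starts, though not all, to be given a putative direction. It was looked for after the data were examined. Transcription mostly begins at a purine that follows a pyrimidine, often at the A of a CA step. In the 400 proliferating-only sites, the central (75th) base of 86% was the purine of such a step, read on one of the strands, against a mean of 41.5% over the 140 other places within 70 bases (range 25.3% to 54.8%). A CA step stood there in 48.75% of the sites, against a mean of 14.5%. In the 849 senescent-only sites the shares were 86.2% against 43.9%, and 50.5% against 16.0%. A pyrimidine-purine step at a given base can be read on 1 strand only. The letters thus give a putative strand, which the strand column does not, as it holds + at every site. Since other places also had a step in a mean of 41.5% of the proliferating-only sites, some central steps may not mark the start. Directions read from such steps could be wrong, and how many are was not tested. This direction comes from the sequence and not from the strand of any read.

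**Figure D3:**
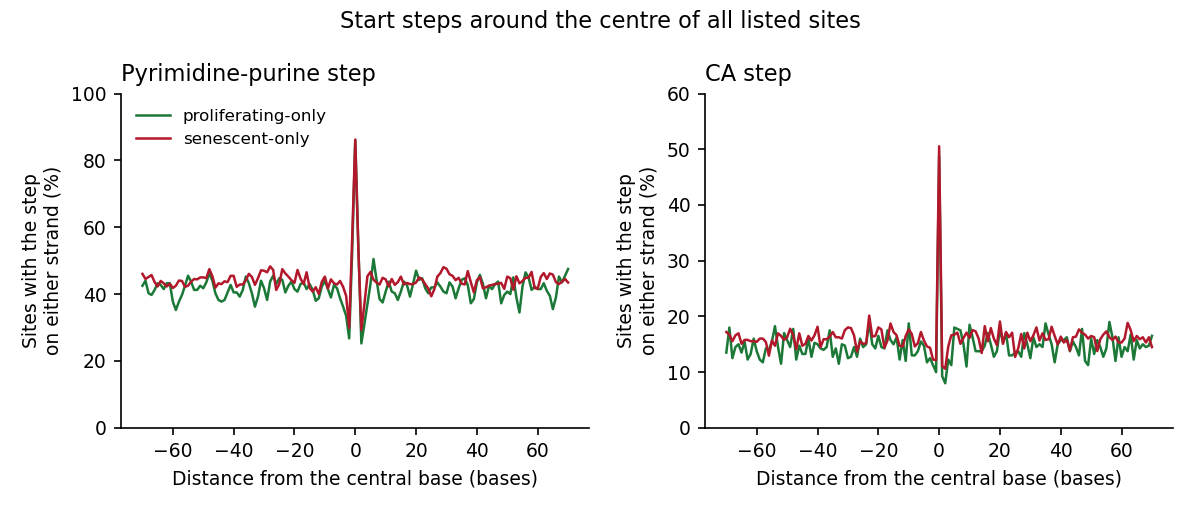
Share of all listed sites with a pyrimidine-purine step (left) or a CA step (right) on either strand, by distance in bases from the central base. Both lists have 1 sharp peak at the central base, 86% and 86.2% on the left and 48.75% and 50.5% on the right.

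Among the 17 proliferating-only member sites, 16 had the step at the centre, 11 of them as CA, 3 as TA and 2 as TG. Moving the central base by 1 to the left or right left 8 and 10 sites with a step. The exception was PLXNA2 site 6, the site with the fewest reads. The NRP2 senescent-only site 3 had none either. The step ran along the host gene at 10 sites and against it at 6. Without the share over the whole list beside them, these counts and the reads that follow describe the members only. Sites along the gene had a median of 30.5 reads (10 to 70), and those against it 17.5 (10 to 38), so the ranges overlapped. Of the 5 sites with a read in senescent cells, 4 ran along the gene (PLXNA2 sites 1, 3 and 5 and TENM4 site 1) and 1 against it (NRP2 site 2).

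By their central steps, the neighbouring sites within 500 bases that could be read in these genes pointed opposite ways. In PLXNA2 the steps of sites 1, 3 and 5 ran along the gene and those of sites 2 and 4 against it, in strict alternation, and the 3 along the gene were also the 3 sites of the cluster with reads in senescent cells. Neighbouring centres within 500 bases made 9 pairs over the 3 genes, of which 8 could be read: 5 were divergent, with the starts pointing away from each other, 3 were convergent and 0 pointed the same way. The divergent pairs were PLXNA2 sites 1 and 2 (218 bases apart) and 3 and 4 (126), NRP2 sites 4 and 5 (260), and TENM4 sites 4 and 5 (103) and 6 and 7 (262). The start along the gene had more reads than the start against it in 4 of the 5 divergent pairs and fewer in 1. In PLXNA2 it had 21 reads against 38 at sites 1 and 2, and 64 against 10 at sites 3 and 4. It had 19 against 10 in NRP2, and 15 against 11 and 40 against 24 in TENM4. The intervals of the reads overlapped in all of these pairs except PLXNA2 sites 3 and 4. NRP2 sites 1 and 2, 494 bases apart, were convergent. Over all proliferating-only sites, 89 such pairs could be read, with 49.4% divergent, 36% convergent and 14.6% in the same direction. Over the senescent-only sites it was 74.0%, 16.2% and 9.74% of 154 pairs. Pairs in a gene share their sequence and neighbourhood, and 8 pairs are too few to set these genes apart from the list.

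**Figure D4:**
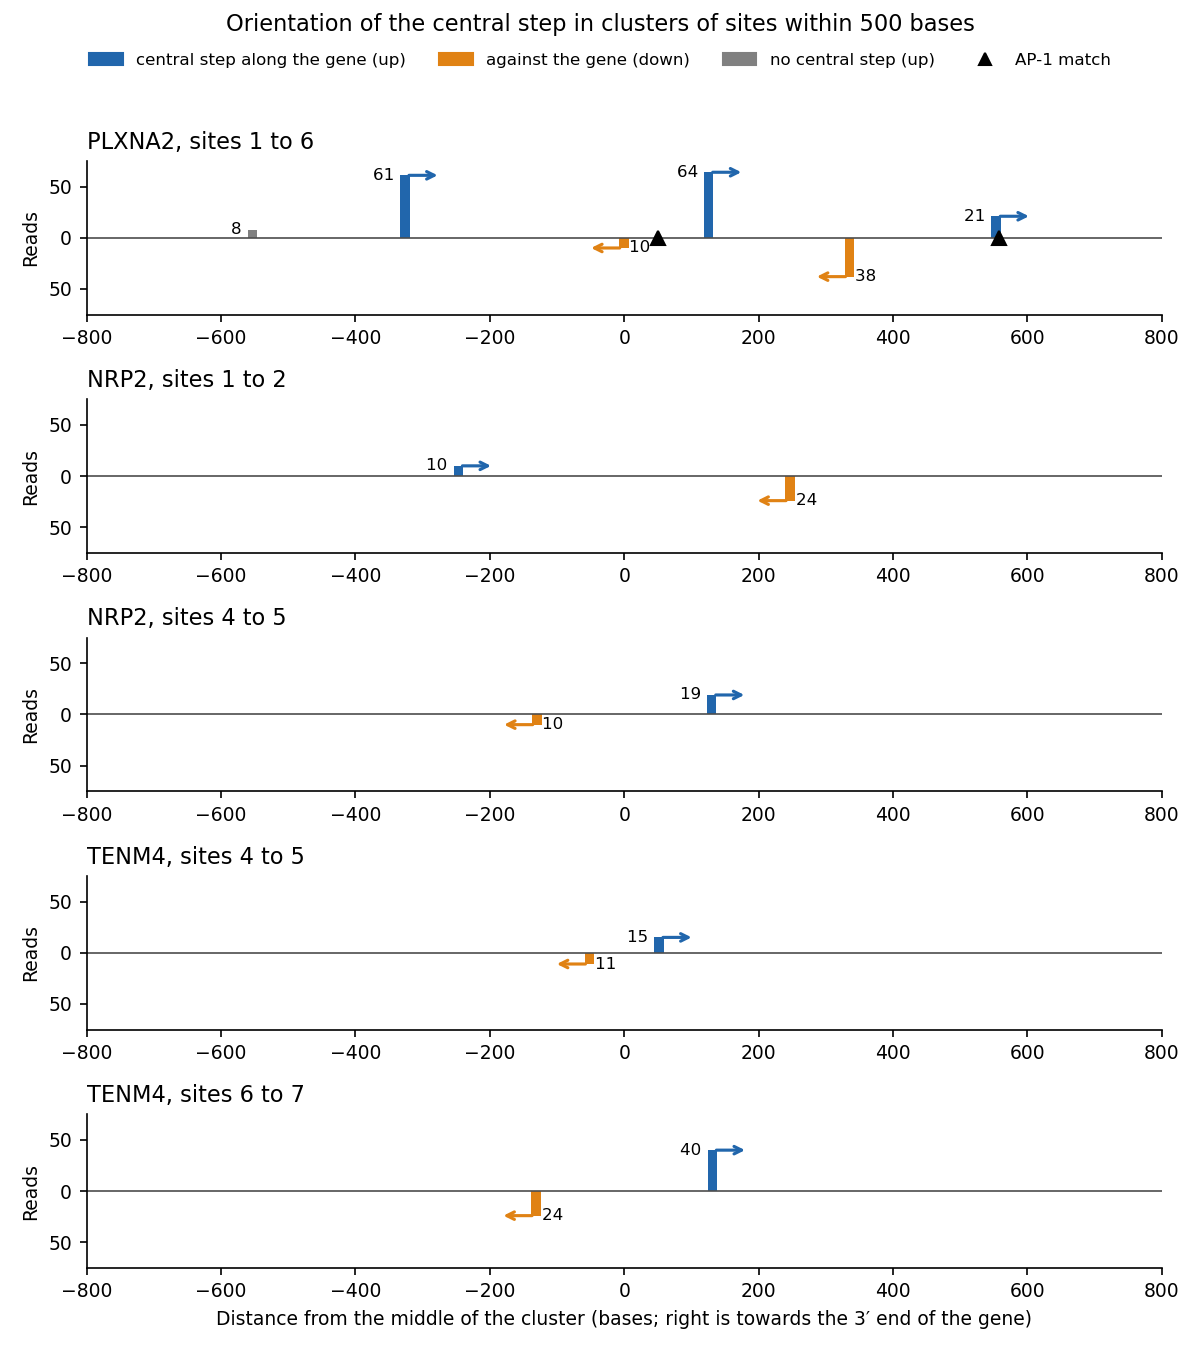
Direction of the starts in the 5 clusters of neighbouring sites within 500 bases: the horizontal axis is the distance in bases from the middle of the cluster, with the 3′ end of the gene to the right. The bar height is the number of reads in proliferating cells, drawn up for starts along the gene and down for starts against it. PLXNA2 site 6, which has no central step, is also drawn up, in grey and without an arrow. Arrows point the same way as the step; triangles mark AP-1 matches, which appear only in the PLXNA2 panel, at 2 places.

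The sequence around the sites was CpG-poor, unlike the main promoters of the same genes. In the 200 bases centred on a site, the ratio of observed to expected CpG ran from 0 to 0.418 over the 17 proliferating-only sites, with a median of 0.204, against 0.247 over the list, and was 0.0687 at the senescent-only site of NRP2. None of the 18 had a ratio above 0.6, against 8% of the proliferating-only list. RefSeq's promoters of PLXNA2, NRP2 and TENM4 (GRCh38, 300 bases, 1 per gene, all 3 matched) had ratios of 0.812, 0.899 and 0.929 and a GC content of 70.3%, 70.0% and 66.3%. GC content at the sites ran from 38% to 57.5%, with a median of 47%, against 47.25% for the list. By gene the median was 51.3% in PLXNA2, 44% in NRP2 and 45.5% in TENM4. The PLXNA2 range of 49.5% to 57.5% lay above the TENM4 range of 38% to 47.5%.

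Motifs were searched on both strands of the same 200 bases. AP-1, bound by FOS and JUN proteins, was TGAGTCA or TGACTCA, each the reverse complement of the other. It occurred at 4 of the 17 proliferating-only member sites, against 10% of the list. These were 3 places in the genome, since overlapping PLXNA2 sites 3 and 4 shared the match at chr1:208203528-208203534, which lies between their divergent centres at 208203456 and 208203582. PLXNA2 site 1 had a match at chr1:208203020-208203026, next to its centre at 208203028. TENM4 site 1, the most filled, had one at chr11:78426718-78426724, just past the end of the site. The senescent-only NRP2 site 3 had one at chr2:206619753-206619759, within the capitals at the end of its printed sequence, and 18.4% of the senescent-only list had one. Of RefSeq's 35116 promoters of 300 bases, a longer window, 4.95% held an AP-1 match and 45.0% a GC box (GGGCGG), which was found at 0 of the 17 sites and at 13.5% of the list.

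The palindromic E-box CAGCTG occurred at 5 of the 17 sites, 4 of them in PLXNA2, where overlapping sites 3 and 4 shared 1 match, against 21.75% of the list. A TATA box (TATAAA) was found at 4 sites, against 13.25%, but in 0 of the 16 sites with a readable start did it lie 20 to 40 bases upstream on the strand of the start, where TATA boxes act. In the list 12 of 344 such sites had one there (3.49%). The remaining motifs were CCAAT (3 sites, 19.25% of the list), TEAD (GGAATG, 2 sites, 18.75%), C/EBP (TTGCNNAA, 2 sites, 11.5%), RUNX (TGTGGTT, 2 sites, 5.75%), ETS (CCGGAA, 0 sites, 3%) and the cAMP response element (TGACGTCA, 0 sites, 0.5%). The palindromic NFI motif was found at no site of either list (0). NRP2 site 5 held 2 TEAD matches, both in capitals above. The AP-1 and TEAD matches of PLXNA2 site 1 overlap by 2 bases. A match describes letters and shows no bound factor, and the shares come from too few independent places to be set apart from the list.

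Other genes of the guidance systems were examined from a list of 106, of which all were in the annotation: plexins, neuropilins, semaphorins, teneurins and their partners, the netrin, slit and ephrin systems, VEGF partners of neuropilin 2 and plexin signalling. Leaving out PLXNA2, NRP2 and TENM4, 6 of 103 held a senescent-only site (5.83%), 3 held a proliferating-only site (2.91%) and 94 held none. The genes of this list are long, with a median of 103 kb. Among the 61 longer than 50 kb, 6 held a senescent-only (9.84%) and 2 a proliferating-only site (3.28%), against 5.2% and 2.43% of all protein-coding genes of that length, of which 0.236% held both. CRMP1 is among the 6 in both counts, though its sites also lie in EVC on the other strand, as described below. These shares rest on few genes and are given as a description.

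TENM3, another teneurin gene, held sites of the other state. It had 4 senescent-only and 0 proliferating-only sites, in 2 pairs within introns at chr4:183455145-183455450 and chr4:183526175-183526405. They had 9, 48, 45 and 38 reads in senescent and 0, 0, 0 and 1 in proliferating cells (folds 296, 1576, 1478 and 30.9), and the sites of the second pair overlap. Both pairs were divergent by their central steps, as in TENM4. TENM3 and TENM4 thus carried starts of opposite states, at 59.2% to 70.0% and 53.6% to 92.0% of gene length. TENM1 and TENM2 held no site of either list. ADGRL2, which encodes a latrophilin and so a teneurin partner, held 1 intronic proliferating-only site with 26 reads against 0 (fold 1025).

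Of the ligands, 18 of the 20 semaphorin genes held no site. SEMA4D and SEMA5A, which encode membrane-bound semaphorins, held 1 intronic senescent-only site each, with 38 and 25 reads against 0 (folds 1248 and 821). Among the 9 plexins PLXNA2 held sites and the other 8 held none, and NRP1 held none. EFNA5, an ephrin ligand gene, held 1 senescent-only site with 14 reads against 0. EPHA1, an ephrin receptor gene, held 1 proliferating-only site with 73 reads against 1 (fold 85.0), 860 bases from the annotated start of EPHA1-202. ROBO1, a slit receptor gene, held 1 proliferating-only site of 3 reads against 0, which is at the floor. None of the 12 genes of the netrin system and none of the 6 VEGF partners held a site. Over all protein-coding genes 2.04% held a senescent-only and 1.09% a proliferating-only site. The counts of genes without a site therefore say nothing about these families.

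Of the plexin signalling genes, CRMP1 and DPYSL2, which encode collapsin response mediators that act on microtubules, held senescent-only sites. The 5 sites of CRMP1, at chr4:5749999-5754473, also lie in EVC on the other strand, 1 of them 4 bases from the annotated start of EVC-204. All 5 had a central step along EVC and against CRMP1, so the direction read from the letters is that of EVC. They had 59, 93, 206, 118 and 108 reads in senescent and 0, 0, 1, 2 and 4 in proliferating cells. DPYSL2 held 1 site with 250 reads against 5 (fold 41.5).

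**Figure D5:**
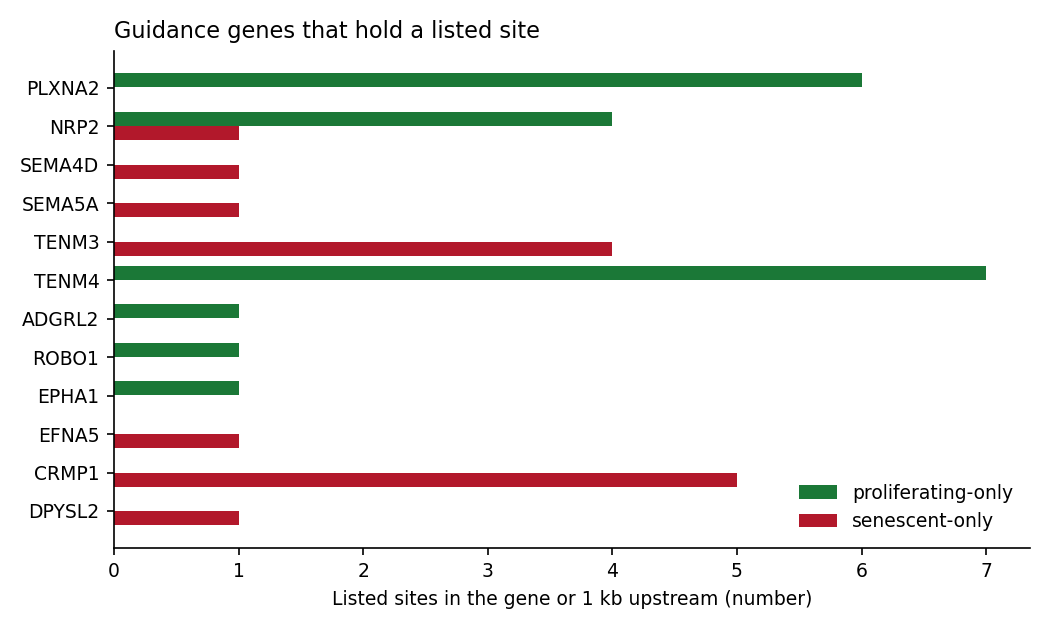
Number of listed sites (horizontal axis) in each of the 12 guidance genes that held any, by list. PLXNA2 and TENM4 have proliferating-only bars alone, NRP2 both, and TENM3 and CRMP1 senescent-only bars of 4 and 5; the CRMP1 sites also lie in EVC.

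Genes with the most similar pattern were ranked over the 614 other protein-coding genes with a site, by the summed difference in 4 counts (sites and 10-kb regions of each list). PLXNA2 was matched exactly by PLS3, an actin-bundling plastin gene, with 6 proliferating-only sites in 1 region (highest fold 9883 against 1497). PCSK7 and SLC14A2 differed by 1 site. NRP2 was nearest to NXN (4 proliferating-only sites in 2 regions, 2 senescent-only in 1), then to GPC6, CACNA1C and SYT1, at a distance of 2. TENM4 had no close match: LRMDA, PLXNA2, PPP1R12B and PLS3 stood at a distance of 3. The counts are small whole numbers, so ties are common.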

How the data were processed

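The deposited data used were 2 lists of PRO-cap start sites. Each site had a fold, the ratio between the states, that the authors computed. A further 2 deposited lists were identical to them. These were attached to the PRO-cap libraries at population doubling 23 (proliferating) and 76 (senescent). The direction was taken from the list names. The labels of all 3 PRO-cap replicates of a state name its list; the selection of sites, its thresholds and the libraries that entered are not given in the sources used here. The submitters' processing notes name cutadapt 2.10, BWA 0.7.10, bedtools 2.27.1-65, HOMER and SAMtools 1.1, with no role, and hg19 among the builds. All sites were 150 bases wide and lay within GRCh37 chromosomes (0 past an end).

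Reads were decoded from each fold as whole numbers within 1e-06 of a read: all 400 and 849 folds were matched, against 0.02% and 0.01% of 10000 random folds. The steps, which differ by a factor of 1.2, are the one sign of depth in the lists. The decoding was checked on simulated data. The pseudocount sets the fold where a state has 0 reads, and overlapping sites may share reads. Genes came from GENCODE 44 lifted to GRCh37; a site was placed by its 75th base and was a promoter site within 1 kb of any transcript start, otherwise exonic, intronic or intergenic. Named are the members, every guidance gene with a site and, per member, up to 5 genes with the most similar counts. The members and lists were chosen with earlier results of these data known. No test was run, because the lists chose the members and hold no replicates. Python 3.11.15, NumPy 2.4.6, SciPy 1.17.1 and pysam 0.24.0 were used.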

Additional observations from a re-analysis of the deposited data

How the results depend on the processing

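No paired analysis was possible because each list gives a single fold between the states for a site and nothing per library, so leaving out a replicate could not be tried. Of 102 values under alternatives, 86 stayed within 1.5 times the reported value and 16 did not. Part of the 86 could not have moved. Filters cannot raise the counts of 0 senescent-only sites in PLXNA2 and TENM4, and 1 senescent-only site fixes the regions and median fold in NRP2. The tally is therefore no measure of robustness. Upstream limits of 0 or 5 kb, spans of protein-coding transcripts and other overlap rules changed no count of sites in PLXNA2, NRP2 or TENM4, near which no other listed site lay. Keeping sites at 0 reads in the other state left 3 in PLXNA2, with a median fold of 395 in place of 194. A fold of at least 100 also left 3 there, and a fold of at least 1000 left 1 in PLXNA2, 2 in TENM4 and 0 of either list in NRP2. Taking the highest site per 500-base region gave a median fold of 1497 in PLXNA2. TENM4 had 5 regions in place of 3 when joined within 500 bases or 1 kb. In the 150 bases of the site AP-1 and the TATA box were found at 2 member sites each in place of 4, and in 400 bases the E-box at 9 in place of 5 and the GC box at 1 in place of 0. Shifting the central base left 8 or 10 sites with a step in place of 16, an alternative chosen after the data were examined. Depth limits the folds: sites of 8 to 12 reads with 0 in the other state gave 3.20 to 4.80 against the floor of 3 reads.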
